A study of Mus musculus with 9 samples.

Results

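Macrophages labelled Pparg-deficient were compared with macrophages labelled wild type, where both came from mice of 1 genotype label, Pparg-/-.LysMCre. The comparison rests on 6 of the 9 arrays of the series, 3 of deficient cells, titled "PPARg Hom lung int pop", and 3 of wild type cells, titled "PPARg Hom lung Mph". The other 3 arrays, of wild type cells from Pparg-/+.LysMCre mice, entered the fit, so their spread counts in its p-values. They are given beside the 6 as a second reference. All mice were C57/BL6 females aged 8 weeks, and all 3 groups carry a Cre recombinase under the LysM promoter, so no group is free of Cre. Lung cells were sorted on SiglecF and CD11b and lysed at once, and their RNA was amplified as cDNA and hybridised to single-colour Illumina beadchips. The sources used here do not give what told wild type from deficient cells within 1 genotype, what "int pop" stands for, or whether arrays came from separate mice. Each p-value below is therefore set against the spread of these samples alone, and that spread may be technical. The deficient arrays lay on 1 slide and both wild type groups on the other, so slide and deficient label cannot be told apart.

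PPARg, the protein of Pparg, is a nuclear receptor that binds DNA with a retinoid X receptor partner and is activated by fatty acid derivatives. In alveolar macrophages, the phagocytes of the lung air spaces that clear surfactant lipid, it is known to be induced after birth by GM-CSF and to be needed for the mature state and for lipid handling. In other macrophages ligand-bound PPARg is known to restrain inflammatory genes.

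A probe was kept when its deposited detection p was under 0.05 on at least 3 of the 6 arrays, which left 19877 of 46237 probes, 15736 of them with a gene symbol for 11303 genes. Values are normalized log2 signals. The lowest signal above background on an array lay between 4.78 and 4.97, so readings near 4.2 are background. Signals measure pooled RNA of sorted cells, in which fewer cells of a type and less RNA per cell cannot be told apart. Median deposited intensities were 145, 241.7 and 209.9 on the homozygous wild type arrays and 146.2, 159.6 and 184.2 on the deficient arrays. Log2 signals correlated at 0.784 to 0.853 between arrays of 1 group and at 0.79 to 0.854 between the groups, so the 2 ranges overlapped.

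Of 16 listed general macrophage genes 13 passed, each above background on all 6 arrays, while Aif1, Itgam and Lyz2 did not pass. Cd68, a lysosomal glycoprotein of phagocytes, averaged 10.30 in deficient and 10.22 in homozygous wild type cells, Adgre1, a macrophage adhesion receptor, 10.08 and 9.92, and Mrc1, the mannose receptor, 10.46 and 10.79. Itgax, the integrin chain CD11c that alveolar macrophages carry, averaged 10.14 and 9.65. Siglecf, which was used in the sort and is therefore no finding, read 6.63, 5.39 and 6.57 on the deficient arrays against 7.81, 7.98 and 7.89 in homozygous wild type cells. Itgam, the gene of the other sort marker CD11b, was above background on deficient replicate 1 alone, at 7.52, and did not pass the filter. Ear1, Ear2, Fabp1, Fabp4 and Krt79, also listed as alveolar macrophage markers, did not pass.

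Pparg, the targeted gene, was lower on all 3 deficient arrays at its brightest probe. It read 7.57, 7.22 and 7.76 in deficient cells and 9.71, 9.15 and 8.13 in homozygous wild type cells, beside 9.35 to 9.54 in heterozygous cells. The 2 groups did not overlap, and homozygous wild type replicate 3 was the lowest of its group. The difference was -1.48 (SE 0.39) with a limma adjusted p of 0.267, so it did not pass, and in an exact permutation test, two-sided, p was 0.1, the lowest value possible with 3 arrays against 3. The other Pparg probes differed by -0.57 and -0.89 (limma adjusted p = 0.786 and 0.792) and overlapped between the groups. At the dimmest of the 3 probes homozygous wild type replicate 3 read 4.35, below background, as did deficient replicates 1 and 2. Where these probes lie relative to the deleted part of the gene is unknown here, so their signal neither checks the labels nor measures deletion. Lyz2, whose promoter is the LysM promoter of the Cre, was below background at its 3 probes on all 6 arrays and did not pass. Each heterozygous array was above background at 1 or more of these probes, with readings up to 6.42.

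**Figure D1:**
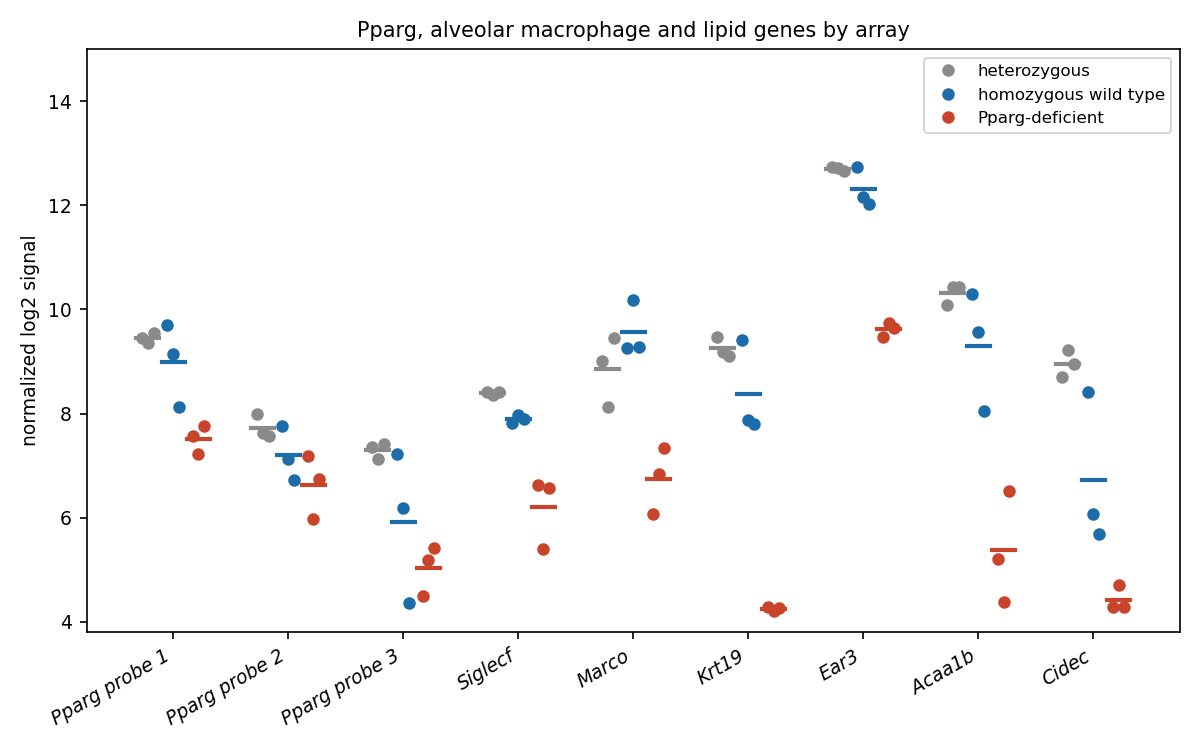
Normalized log2 signal of the 3 Pparg probes and of 6 alveolar macrophage or lipid genes on each of the 9 arrays, with 1 point per array and a bar at each group mean; grey is heterozygous, blue homozygous wild type and red Pparg-deficient. Deficient arrays lay below the homozygous wild type arrays at the brightest Pparg probe and at Siglecf, Marco, Krt19, Ear3, Acaa1b and Cidec. Both other Pparg probes overlapped, and only Krt19 and Ear3 passed the test. Siglecf was used in the sort.

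Over all 19877 probes, 38 were called at a limma adjusted p under 0.05, which is 0.191% of those tested. Of these 26 were higher in deficient cells (0.131%) and 12 lower (0.0604%). At an unadjusted p under 0.05 there were 1614 probes, 831 higher and 783 lower. The called probes with a symbol belonged to 24 genes that rose and 7 that fell, and the other 5, all lower, had no symbol in the annotation used. The arrays of the 2 groups did not overlap at any of the 38, as at 12.4% of all probes (6.31% with deficient arrays higher and 6.08% lower). At 17 called probes no homozygous wild type array was above background and at 5 no deficient array was. For these 22 the fold is a lower bound, and each passed the filter only through the brighter group. Signals at background can vary little, as at Ffar2 (SD 0.06 in deficient cells), so small limma p-values there rest partly on that floor. Where 1 array of the dimmer group was above background, as at Tns3, Cyria and Aqp9, the printed fold also rests partly on background readings.

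**Figure D2:**
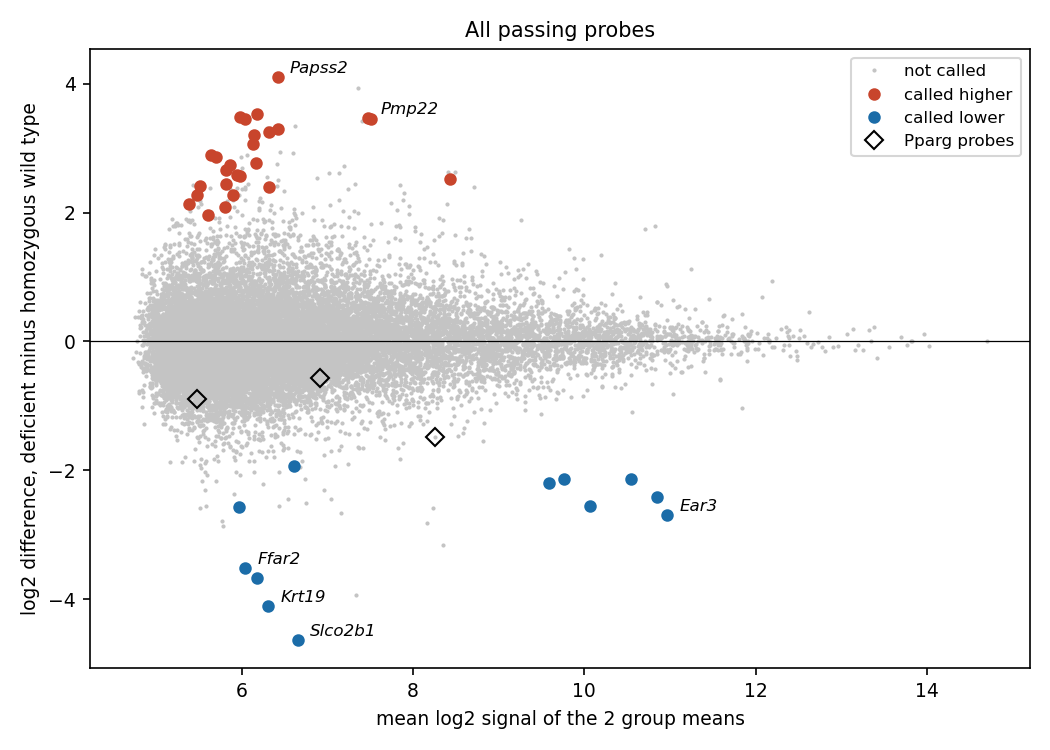
Log2 difference, deficient minus homozygous wild type, against the mean log2 signal of the 2 groups for each of 19877 passing probes. Red points are the 26 probes called higher, blue points the 12 called lower and open diamonds the 3 Pparg probes; most higher calls had mean signals below 7, while 6 of the 12 lower calls had mean signals above 9.

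The genes that fell include a transporter, a receptor for microbial fatty acids and an alveolar macrophage keratin, each at background on every deficient array. Slco2b1, an organic anion transporter of the plasma membrane, read 9.59, 8.93 and 8.38 in homozygous wild type cells and 4.48, 4.30 and 4.24 in deficient cells. All deficient arrays were at background, so the decrease was at least 17.5-fold (limma adjusted p = 0.000984). Krt19, an intermediate filament keratin listed here among alveolar macrophage markers, read 9.42, 7.88 and 7.80 against 4.29, 4.20 and 4.27, at least 11.5-fold lower (limma adjusted p = 0.00539). Wild type replicate 1 was its highest array, and the other 2 wild type arrays lay below all 3 heterozygous arrays. Ffar2, which senses short-chain fatty acids, read 7.83, 7.64 and 7.92 against 4.26, 4.36 and 4.23, at least 7.76-fold lower (limma adjusted p = 0.0014). Vstm2a, which encodes a protein with an immunoglobulin domain, read 8.22, 7.59 and 8.24 against 4.44, 4.22 and 4.40, at least 9.03-fold lower (limma adjusted p = 0.0052). For both genes the heterozygous arrays overlapped the homozygous wild type arrays.

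Ear3, of the eosinophil-associated ribonuclease family that alveolar macrophages express, stayed far above background in every group. It read 12.74, 12.16 and 12.03 in homozygous wild type cells and 9.48, 9.73 and 9.64 in deficient cells, a 6.46-fold decrease (log2 difference -2.69, SE 0.27, limma adjusted p = 0.00539). Its second probe differed by -1.43 without passing (limma adjusted p = 0.0861), and its relative Ear10 by -1.69 (adjusted p = 0.114). Sequences within the family are similar, so a probe may read more than 1 member. The 5 called probes without a symbol had homozygous wild type means of 10.68 to 12.06, deficient means of 8.49 to 9.64 and differences of -2.56 to -2.13. Aebp2, a partner of the Polycomb repressive complex, was at least 5.23-fold lower at 1 of its 5 probes (limma adjusted p = 0.00918), while its other 4 overlapped between the groups and did not pass. Perp, a membrane protein of desmosomes and a p53 target, read 7.79, 7.81 and 7.15 against 5.58, 5.70 and 5.68, a 3.81-fold decrease (limma adjusted p = 0.0361).

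Promoters of Slco2b1 and Ffar2 are shown because both genes fell to background and held matches to motifs searched below, so the choice followed the matches. A part of these motifs in the decrease was not tested. Windows of 300 bases around each annotated start came from RefSeq (GRCm38.p6), and 21 of the 31 called genes with a symbol had at least 1. Both strands were searched for 4 motifs: AGGTCA, the half-site bound by nuclear receptors; the direct repeat of that half-site with a spacer of 1 base, bound by PPARg with its partner; TGANTCA, bound by AP-1; and GAGGAAGT, bound by PU.1, the macrophage lineage factor. Capitals mark matches.
Slco2b1, chr7:99711291-99711590, minus strand: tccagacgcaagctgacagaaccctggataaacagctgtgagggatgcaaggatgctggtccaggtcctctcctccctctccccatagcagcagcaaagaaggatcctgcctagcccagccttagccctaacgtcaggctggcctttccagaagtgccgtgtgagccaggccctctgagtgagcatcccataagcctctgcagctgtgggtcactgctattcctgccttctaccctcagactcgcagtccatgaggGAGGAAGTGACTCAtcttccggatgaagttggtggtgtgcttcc
Ffar2, chr7:30823726-30824025, minus strand: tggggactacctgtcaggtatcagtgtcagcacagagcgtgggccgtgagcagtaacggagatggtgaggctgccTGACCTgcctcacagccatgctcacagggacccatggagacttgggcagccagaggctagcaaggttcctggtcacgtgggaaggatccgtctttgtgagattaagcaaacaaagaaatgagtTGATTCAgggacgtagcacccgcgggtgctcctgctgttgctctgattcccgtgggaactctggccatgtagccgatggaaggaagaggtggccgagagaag
Slco2b1 has 3 annotated windows, 2 of them with no match. Ffar2 has 4, of which 1 has no match and 2, which overlap, have the same half-site alone. For each gene the window with most matches is shown. In this Slco2b1 window the PU.1 motif lies at bases 7 to 14 after the start and runs into an AP-1 motif at 14 to 20, sharing 1 base. This Ffar2 window holds a half-site on the opposite strand at positions -175 to -170 and an AP-1 motif at -52 to -46. Among genes that rose, C3ar1 and Ecm1 hold AP-1 motifs at -22 to -16 and -64 to -58.
C3ar1, chr6:122856108-122856407, minus strand: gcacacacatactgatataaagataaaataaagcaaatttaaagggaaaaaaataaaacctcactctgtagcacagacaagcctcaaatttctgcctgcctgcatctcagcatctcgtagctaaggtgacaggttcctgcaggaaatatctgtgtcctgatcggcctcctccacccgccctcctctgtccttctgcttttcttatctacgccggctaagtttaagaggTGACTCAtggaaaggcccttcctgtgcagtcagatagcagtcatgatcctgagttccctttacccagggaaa
Ecm1, chr3:95739520-95739819, minus strand: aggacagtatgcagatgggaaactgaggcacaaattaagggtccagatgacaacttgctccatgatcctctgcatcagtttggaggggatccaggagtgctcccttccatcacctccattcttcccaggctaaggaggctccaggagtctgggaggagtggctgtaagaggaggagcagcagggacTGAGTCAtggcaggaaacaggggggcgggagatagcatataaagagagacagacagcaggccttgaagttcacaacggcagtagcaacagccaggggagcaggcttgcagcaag
A gene was counted when any of its windows matched, so genes with more windows had more room for a match. Of the 4 that fell, Ffar2 has 4 windows, Slco2b1 and Aebp2 have 3 each and Vstm2a has 1. All 27025 genes have 32851 windows. Vstm2a and Aebp2 had no match in any window. The AP-1 motif was in windows of 4 of 17 genes that rose (also Aqp9 and AA467197) and 2 of 4 that fell, against 8.97% of all 27025 genes and 7.81% of all windows. The half-site was in 3 of 17 (Gpr84, Lyz1 and Papss2) and 1 of 4, against 18.1%. The PU.1 motif was in 0 of 17 and 1 of 4, against 3.69%, and the direct repeat in none of the 21 genes, against 0.0481%. A match describes letters and is no evidence of binding.

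Among the genes that rose, Papss2, which makes the activated sulfate used by sulfotransferases, had the smallest p. It read 8.59, 8.37 and 8.46 in deficient cells, and the homozygous wild type arrays, at 4.30, 4.29 and 4.52, and the heterozygous arrays, at 4.29 to 4.52, were all at background. The increase was at least 12.2-fold (limma adjusted p = 0.00032), but a second, dimmer Papss2 probe overlapped between the groups (log2 difference -0.24, adjusted p = 0.951). Vnn3, of the vanin family of pantetheinases, was at least 8.43-fold higher at 1 probe and at least 7.46-fold at the other (limma adjusted p = 0.0257 and 0.0191). All 3 homozygous wild type arrays were at background at both probes, as were 2 of the 3 heterozygous arrays; heterozygous replicate 3 read 6.17 and 5.92.

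Anpep, Aqp9, C3ar1, P2ry1, Colec12 and Gpr84 also rose, each at 1 or more probes. Anpep, aminopeptidase N or CD13, read 8.03, 7.71 and 7.51 in deficient cells and 4.62, 4.23 and 4.78 in homozygous wild type cells, at least 7.38-fold higher (limma adjusted p = 0.00216). Aqp9, a channel for water and glycerol, read 7.62, 7.36 and 8.03 against 4.18, 4.37 and 5.25, an 8.40-fold increase (limma adjusted p = 0.0081), with wild type replicate 3 alone above background. C3ar1, the receptor of the complement fragment C3a, read 7.56, 7.29 and 6.87 against 4.25, 4.68 and 5.02, at least 5.05-fold higher (limma adjusted p = 0.00918). The deficient arrays lay well above every wild type array in each of these genes. P2ry1, a receptor for ADP, was at least 4.68-fold higher (limma adjusted p = 0.0334), with deficient readings as far apart as 6.35 and 8.15. Colec12, a scavenger receptor of the collectin family, was at least 4.81-fold and 3.60-fold higher at its 2 probes (limma adjusted p = 0.00761 and 0.00788). Gpr84, a receptor for medium-chain fatty acids, was at least 4.52-fold higher at the dimmer of its 2 probes (limma adjusted p = 0.0293), and its brighter probe differed by 1.73 without passing (adjusted p = 0.196).

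Csf1, Ecm1, Ccn3 and Hpse were called higher as well. Csf1, the growth factor of the macrophage lineage, read 7.22, 7.36 and 8.08 in deficient cells and 4.27, 4.33 and 5.76 in homozygous wild type cells (log2 difference 2.77, SE 0.42, limma adjusted p = 0.0448). Wild type replicate 3 was the 1 wild type array with Csf1 above background. Ecm1, a secreted matrix glycoprotein, was at least 5.18-fold higher at 1 probe (limma adjusted p = 0.0125), while its brighter probe averaged 10.20 against 8.32 and did not pass (adjusted p = 0.18). Ccn3, a matricellular protein, was at least 4.88-fold higher (limma adjusted p = 0.0157). Hpse, the enzyme that cleaves heparan sulfate, was at least 3.85-fold higher (limma adjusted p = 0.0122).

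The remaining genes called higher include Tns3, Cyria, Pmp22, Slc7a11 and Arrb1. Tns3, a tensin that links integrins to actin, read 8.13, 8.00 and 7.68 in deficient cells and 4.54, 4.32 and 5.21 in homozygous wild type cells, a 9.49-fold increase (limma adjusted p = 0.0052) against a group with 1 of 3 arrays above background. Cyria, an inhibitor of Rac1 signalling to actin, read 7.91, 8.47 and 7.88 against 4.28, 4.88 and 5.19, a 9.88-fold increase (limma adjusted p = 0.0052), again with 1 of 3 homozygous wild type arrays above background. Its heterozygous arrays lay in between at 5.70 to 6.02. Pmp22, a myelin protein also made outside nerve, read 9.59, 9.06 and 8.97 against 7.05, 4.60 and 5.57, where 2 of the 3 homozygous wild type arrays were above background. Its wild type arrays were spread more widely than its deficient arrays, and the difference was 3.47 (SE 0.53, limma adjusted p = 0.0425); a second probe gave 3.42 (adjusted p = 0.0537). Slc7a11, the cystine transporter, was called at 1 of 5 probes (log2 difference 2.57, limma adjusted p = 0.0141), where 1 of 3 homozygous wild type arrays was above background, and its brightest probe differed by 1.28 (adjusted p = 0.558). Arrb1, a beta-arrestin, was called at the dimmer of its 2 probes (at least 4.50-fold, limma adjusted p = 0.0262). Pmepa1, Rnf11 and Mansc1 were called with limma adjusted p-values of 0.0425, 0.0425 and 0.0463, and other probes of all 3 overlapped between the groups.

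**Figure D3:**
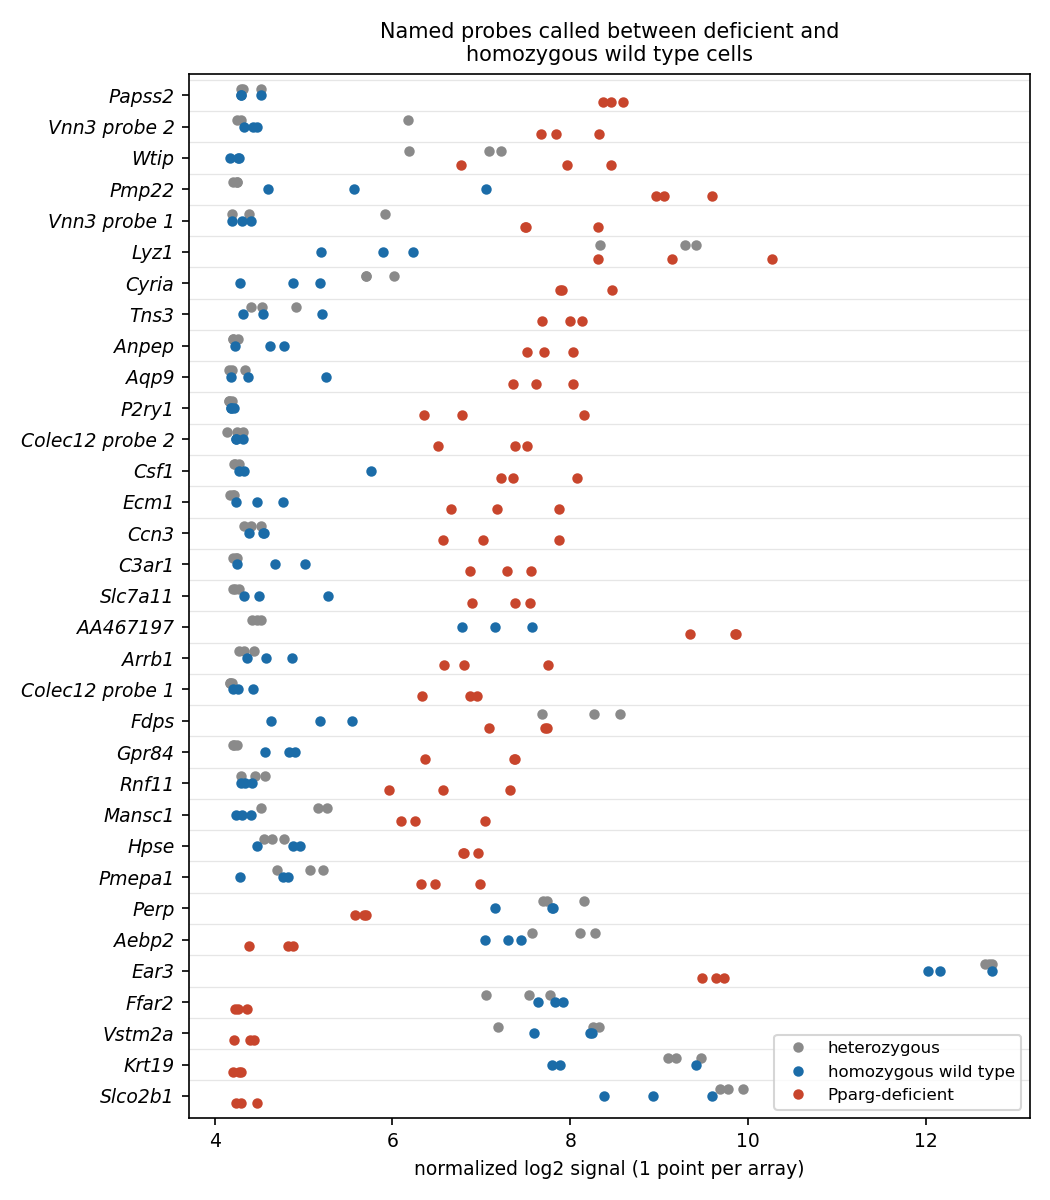
Normalized log2 signal of the 33 called probes with a gene symbol on the 9 arrays, 1 point per array, ordered by the difference between deficient (red) and homozygous wild type (blue) cells, with heterozygous cells in grey. Red and blue points did not overlap in any row, many blue and grey points sat near 4.2 at background, and grey points lay with red in Wtip, Lyz1 and Fdps.

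The heterozygous arrays, which shared the slide of the homozygous wild type arrays, gave a second reference for these genes. Their mean was nearer the homozygous wild type mean at 35 of the 38 called probes and nearer the deficient mean at 3, those of Wtip, Lyz1 and Fdps. The 38 were selected by their difference between deficient and homozygous wild type cells. The share over all probes was not computed, so this count is no result about the called probes. At 17 of them no homozygous wild type array was above background, where nearness may only reflect a shared floor. Wtip, a LIM domain protein of the Ajuba family, read 8.46, 6.77 and 7.96 in deficient, 4.26, 4.27 and 4.17 in homozygous wild type and 6.19, 7.09 and 7.22 in heterozygous cells (limma adjusted p = 0.0163 between the first 2 groups). Lyz1, a lysozyme, read 10.27, 9.14 and 8.31, then 5.89, 6.23 and 5.20, then 9.29, 9.41 and 8.34 in the same order (limma adjusted p = 0.0423). Deficient and heterozygous arrays overlapped in all 3 genes, so there the homozygous wild type group was the one that stood apart. Lyz1 and Lyz2 share much sequence, so the source of the Lyz1 signal is uncertain, and the other Lyz1 probes differed by 2.53 and 1.79 without passing (limma adjusted p = 0.38 and 0.579). Between the wild type groups, Wtip and Lyz1 differed by -2.60 and -3.24 (homozygous minus heterozygous) without passing (limma adjusted p = 0.163 and 0.14).

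Among the 26 higher probes, all heterozygous arrays lay below all homozygous wild type arrays at 6, above them at 5, and the groups overlapped at 15. Among the 12 lower probes the heterozygous arrays lay above at 7 and overlapped at 5. Some separations among the higher probes lay wholly below background and order no groups. At Gpr84, at Ecm1 and at the dimmer Colec12 probe no array of either wild type group was above it. The same shares over all probes were not computed, so these counts cannot be read as a trait of the called probes. AA467197, a gene named here outside the rule for named genes and after its values were seen, had the clearest steps. It read 4.42 to 4.52 in heterozygous, 6.78 to 7.57 in homozygous wild type and 9.35 to 9.86 in deficient cells. Both steps passed, with differences of 2.69 (limma adjusted p = 0.022) from heterozygous to homozygous wild type and 2.52 (adjusted p = 0.00918) from there to deficient cells. These comparisons share the homozygous wild type arrays. On the same probes, deficient against heterozygous cells gave 228 calls (1.15%) and homozygous wild type against heterozygous cells 6 (0.0302%).

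Gene lists were read against all 11303 genes, each by its brightest passing probe, of which 47.2% had a positive and 52.8% a negative difference, while an unadjusted p under 0.05 was reached upward by 4.21% and downward by 4.16%. Genes of sterol synthesis mostly had higher means in deficient than in homozygous wild type cells, with heterozygous cells near the deficient level. Of 11 measured members of this list, 1 rose (0.159% of all genes did), 9 had a positive difference, and their median was 0.86, against -0.03 over all genes. Fdps, which makes farnesyl diphosphate, read 7.09, 7.72 and 7.74 in deficient, 4.63, 5.55 and 5.18 in homozygous wild type and 7.68, 8.56 and 8.27 in heterozygous cells (log2 difference 2.40, SE 0.36, limma adjusted p = 0.0399). The homozygous wild type arrays were lowest, with 1 of the 3 above background, and Fdps was also called between the wild type groups (-3.05, limma adjusted p = 0.0351). Idi1, which makes the isoprenoid precursor of farnesyl diphosphate, differed by 0.94 (limma adjusted p = 0.332) and Sqle, squalene epoxidase, by 1.16 (adjusted p = 0.333), neither passing. Mvd, an earlier enzyme of the pathway, differed by -0.99 and Nsdhl, a later one, by -0.45, with overlapping arrays. Over the list the median was -0.05 for deficient minus heterozygous cells and -0.82 for homozygous wild type minus heterozygous cells, with each pair of these comparisons sharing a group. The other 12 of the 23 listed genes gave no passing probe.

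**Figure D4:**
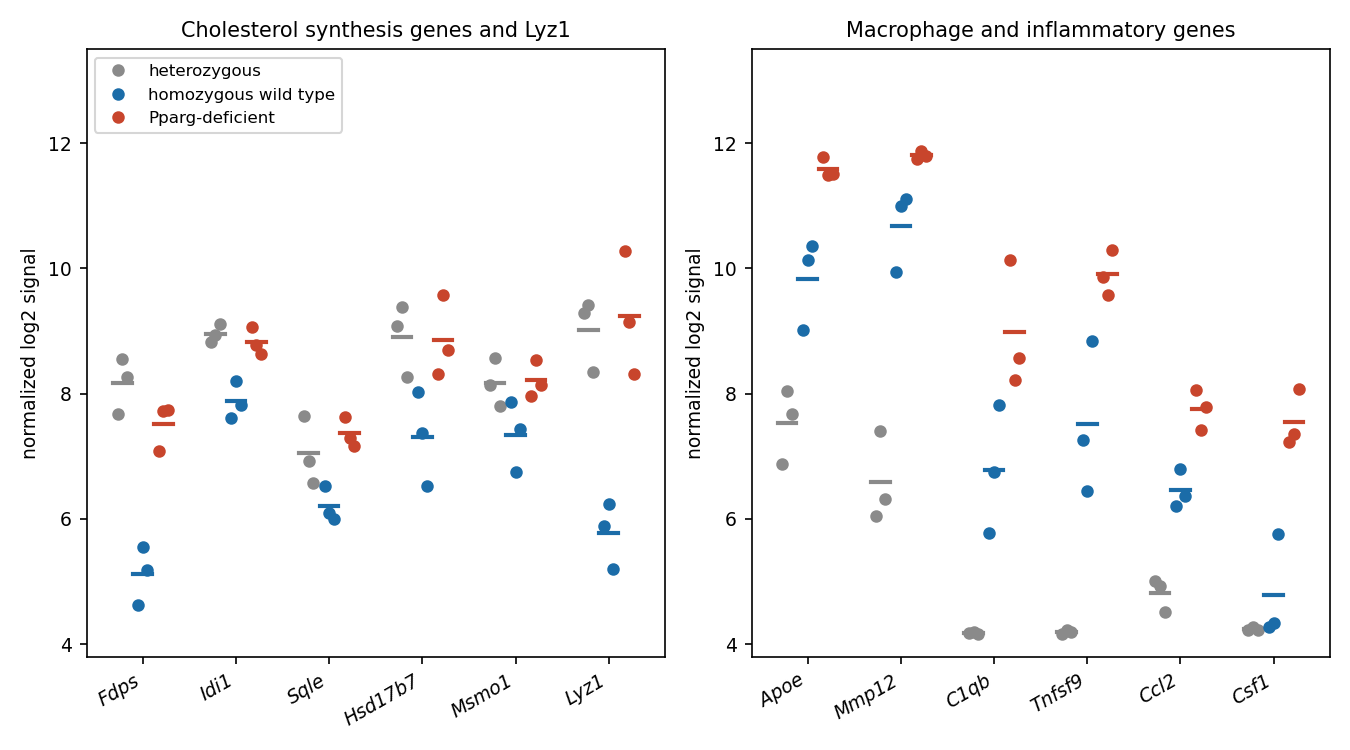
Normalized log2 signal by array of 5 cholesterol synthesis genes and Lyz1 (left) and of 6 macrophage and inflammatory genes (right) in heterozygous (grey), homozygous wild type (blue) and deficient (red) cells, with a bar at each group mean. On the left the homozygous wild type arrays were the low group. On the right the group means stepped up from heterozygous to homozygous wild type to deficient cells. The genes shown are a choice from their lists. Mvd, Nsdhl, Nos2 and Fcgr4, which had negative differences between deficient and homozygous wild type cells, are not shown. For Csf1 the first step rests on 1 homozygous wild type array, as all other blue and grey arrays were at background. Fdps, Lyz1 and Csf1 passed the test between blue and red.

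Inflammatory mediators had mostly positive differences, with 1 gene past the threshold. Of 27 measured cytokine and chemokine genes 1 rose, Csf1, 25 had a positive difference, 12 had all deficient arrays above all homozygous wild type arrays (6.5% of all genes did), and the median was 0.48. Tnfsf9, a costimulatory ligand of the TNF family, read 9.87, 9.58 and 10.29 in deficient and 7.26, 6.45 and 8.84 in homozygous wild type cells, beside background in heterozygous cells (log2 difference 2.40, limma adjusted p = 0.175). Ccl2, a chemokine for monocytes, read 8.06, 7.42 and 7.79 against 6.20, 6.80 and 6.36 (1.30, limma adjusted p = 0.193). Neither passed, although the groups did not overlap in either gene. Tnf, Il6, Il1b and Il1a differed by 0.61, 1.13, 0.16 and 0.13 (limma adjusted p = 0.742, 0.611, 0.939 and 0.943). Nos2, inducible nitric oxide synthase, differed by -0.87 (adjusted p = 0.714). Of 19 measured genes of NF-kB feedback none passed in limma (3 higher at an unadjusted p under 0.05), 17 had a positive difference, and the list median was 0.29; Birc3, a survival gene induced by NF-kB, differed by 1.34 (limma adjusted p = 0.216) and Nfkb1 by 1.31 (adjusted p = 0.451). In the list of immediate early and heat shock genes, which can mark handling of cells, none of 27 passed in limma (5 higher at an unadjusted p under 0.05) and the median was 0.16. Jun and Hspa1b differed by 0.92 and 1.05 (limma adjusted p = 0.319 and 0.332) and Fos by -0.21 (adjusted p = 0.912), and their part in the inflammatory values was not tested.

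Alveolar macrophage and lipid genes had mostly negative differences. Of 17 measured identity genes 2 fell, Krt19 and Ear3 (0.0531% of all genes did), 12 had a negative difference, and the list median was -0.33. Siglecf, used in the sort and therefore no finding, is 1 of these 12. Marco, a scavenger receptor for unopsonised particles, read 6.07, 6.84 and 7.34 in deficient and 9.25, 10.19 and 9.27 in homozygous wild type cells, narrowly missing the threshold (log2 difference -2.82, SE 0.46, limma adjusted p = 0.0578). Chil3, Plet1, Car4 and Cd9 differed by -0.23, 0.02, -0.09 and -0.03 and did not pass. Slc7a2, a transporter of arginine, and Itgax had positive differences of 0.82 and 0.49 (limma adjusted p = 0.432 and 0.641). The list therefore held genes far apart in difference, from Krt19 at background to Chil3 at 12.37 in deficient and 12.60 in homozygous wild type cells.

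Of 18 measured genes of PPARg-linked lipid handling none passed in limma (7 lower at an unadjusted p under 0.05, against 4.16% of all genes), 13 had a negative difference (52.8% of all genes did), and the list median was -0.52, against -0.03 over all genes. Acaa1b, a peroxisomal thiolase, read 5.21, 4.38 and 6.52 in deficient and 10.30, 9.56 and 8.05 in homozygous wild type cells (-3.93, SE 0.63, limma adjusted p = 0.0576). Cidec, a lipid droplet protein, was at background on all 3 deficient arrays and read 8.41, 6.06 and 5.69 in homozygous wild type cells, at least 3.67-fold lower without passing (limma adjusted p = 0.268). In both genes wild type replicate 3 lay lowest in its group and replicate 1 highest. Pparg, Slco2b1 and Ear3 had this order as well, Marco and Fcgr4 did not, and its source was not tested. Scd1, a fatty acid desaturase, was at least 2.64-fold lower without passing (limma adjusted p = 0.278), and its heterozygous arrays were at background too. Cd36, Plin2 and Lpl differed by -0.15, -0.01 and -0.60 and did not pass. Fabp5, a fatty acid binding protein, had a positive difference of 0.95 (adjusted p = 0.735). Of 22 genes of fatty acid oxidation and peroxisomes none passed in limma (3 lower at an unadjusted p under 0.05) and the median was -0.17, with Ech1 at -1.27 and Acadm at -0.86 (limma adjusted p = 0.247 and 0.509).

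Markers of monocytes and interstitial macrophages had mostly positive differences, with Fcgr4 the member farthest in the other direction. Of 19 measured members 1 rose, Lyz1 (0.159% of all genes did), 15 had a positive difference (47.2% of all genes did), and the list median was 0.53, against -0.03 over all genes. Apoe, a lipid carrier made by macrophages, read 11.78, 11.49 and 11.50 in deficient, 9.02, 10.13 and 10.35 in homozygous wild type and 6.87, 8.04 and 7.67 in heterozygous cells. Its difference between deficient and homozygous wild type cells did not pass (1.75, limma adjusted p = 0.212), while that between deficient and heterozygous cells did (4.06, adjusted p = 0.00214). Mmp12, macrophage elastase, showed the same steps and differed by 1.13 (limma adjusted p = 0.504) from homozygous wild type cells, which exceeded heterozygous cells by 4.09 (adjusted p = 0.022). C1qb, a chain of complement C1q, read 10.14, 8.22 and 8.57 against 5.77, 6.75 and 7.81, beside background in heterozygous cells (2.20, limma adjusted p = 0.268). Fcgr4, an activating IgG receptor, read 6.85, 5.28 and 8.16 against 9.87, 9.52 and 10.39 (-3.16, limma adjusted p = 0.109). Ccr2, Ly6c2 and F13a1, which mark monocytes, did not pass the filter.

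Other macrophage functions gave few calls. Of 18 complement and Fc receptor genes C3ar1 rose and the median was 0.08, with Fcgrt, the neonatal Fc receptor, at -0.83 (limma adjusted p = 0.403). Of 14 genes of CSF signalling Csf1 rose. Csf1r, the receptor of Csf1, read 7.92, 7.94 and 8.15 in deficient and 7.15, 6.48 and 6.50 in homozygous wild type cells (1.30, limma adjusted p = 0.422). Its second probe overlapped between the groups (0.26, limma adjusted p = 0.938). Csf3r differed by -0.76 (limma adjusted p = 0.554). Of 13 genes of MHC class II and costimulation none passed in limma (1 higher at an unadjusted p under 0.05) and the median was 0.47, with Cd86 at 1.02 (limma adjusted p = 0.436) and Cd40 at -0.28 (adjusted p = 0.905). Of 15 matrix genes none passed in limma (2 higher at an unadjusted p under 0.05), with Fn1, fibronectin, at 1.30 (limma adjusted p = 0.268) and Mmp13 at -0.76 (adjusted p = 0.641). Of 21 cell cycle genes none passed in limma (5 lower at an unadjusted p under 0.05), 16 had a negative difference, and the list median was -0.34. Stmn1, which controls microtubules in dividing cells, differed by -1.57 (limma adjusted p = 0.153) and Rrm2, of ribonucleotide reductase, by -1.43 (adjusted p = 0.215). Asns, asparagine synthetase, a gene of the amino acid stress response, was at background in homozygous wild type cells and at least 2.82-fold higher in deficient cells without passing (limma adjusted p = 0.0537).

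**Figure D5:**
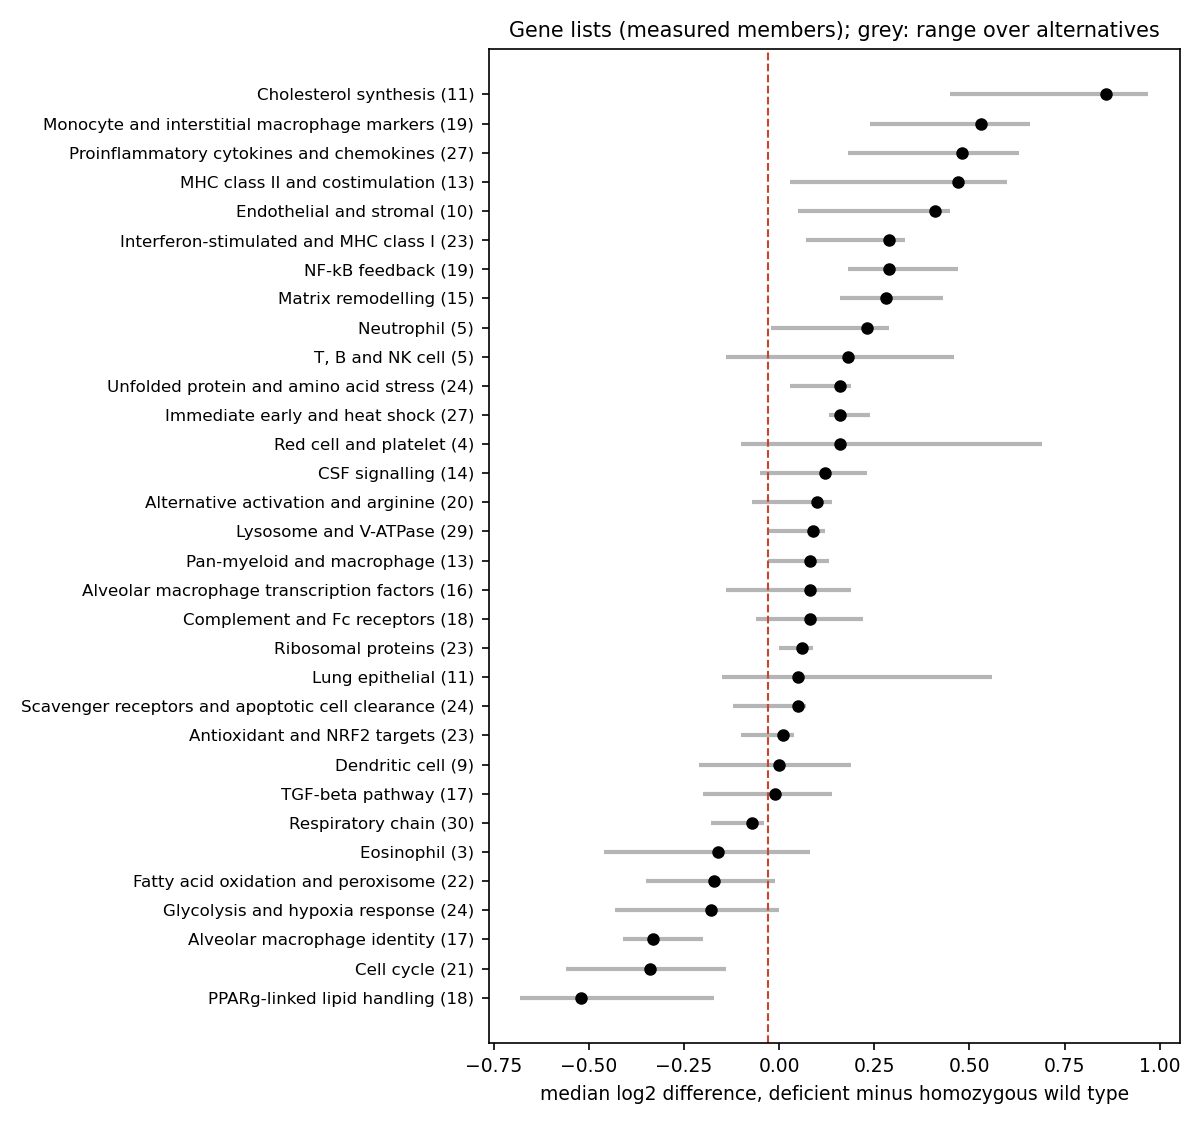
Median log2 difference, deficient minus homozygous wild type, of the measured members of 32 gene lists (number in brackets), with the range over the alternatives in grey and the median of all genes, -0.03, as a dashed line. Cholesterol synthesis lay highest at 0.86 and PPARg-linked lipid handling lowest at -0.52.

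Markers of other lung cells were summed on the linear scale per array, beside the groups above. Lung epithelial markers, of which 11 of 19 passed, summed to a log2 of 11.29, 11.55 and 11.49 on deficient and 11.20, 10.95 and 11.06 on homozygous wild type arrays. Endothelial and stromal markers, of which 10 of 16 passed, summed to 11.22, 11.13 and 11.07 against 10.08, 10.60 and 10.48. Both sums were higher on every deficient array, and none of their genes was called by limma (3 and 1 higher at an unadjusted p under 0.05). Within them Hopx, an epithelial transcription cofactor, differed by 1.79 (limma adjusted p = 0.0875), Scgb1a1, the club cell secretoglobin, by 2.22 (adjusted p = 0.611), and Fn1, which macrophages also make, by 1.30. Fn1 averaged 10.54 in deficient and 9.23 in homozygous wild type cells. On the linear scale this 1 gene made up most of the rise in the endothelial and stromal sum. Of the 10 genes in that sum 6 had a positive and 4 a negative difference, among the latter Pdgfra (-0.58) and Tek (-0.72). Epcam, Sftpd and Lamp3 of the first list and Col1a1, Col1a2, Col3a1, Dcn and Kdr of the second did not pass, while Sftpc differed by 0.17. Neutrophil markers (5 of 14 passed, without S100a9, Ly6g, Elane or Mpo), eosinophil markers (3 of 10, without Epx, Prg2 or Ccr3), dendritic cell markers (9 of 14), lymphocyte markers (5 of 20, without Cd3e) and red cell and platelet markers (4 of 15) gave 0 calls by limma. At an unadjusted p under 0.05 there were 2 dendritic cell genes and 1 red cell and platelet gene higher, and Csf3r and Siglecf, a sort marker, lower. The part of other cells in the called genes was not tested.

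How firmly a gene was called varied. Of the 38 probes, 11 were called whichever of the 9 arrays was left out on the same probes, those of Papss2, Slco2b1, Ffar2, Anpep, Cyria, Tns3, Vstm2a, Ear3, Krt19 and both of Colec12, with limma adjusted p-values up to 0.0479. With only the 6 arrays compared, normalized and fitted alone, 9 were called, 6 higher and 3 lower. These were Papss2, Slco2b1, Ffar2, Anpep, Cyria, Tns3, Vstm2a and both Vnn3 probes. In the main fit the heterozygous arrays add to the shared spread. Their median SD was 0.37, against 0.47 in homozygous wild type and 0.45 in deficient cells. At the called Csf1 and Pmp22 probes their SD was 0.02, against 0.85 and 1.23 in homozygous wild type cells. On the 6 arrays alone these probes had limma adjusted p-values of 0.158 and 0.153. A Vnn3 probe with a heterozygous SD of 1.10 went the other way, from 0.0257 to 0.0183. Aqp9 missed the threshold without deficient replicate 1 (limma adjusted p = 0.0516), Aebp2 without homozygous wild type replicate 2 (0.0566), and C3ar1 and AA467197 without either of these (up to 0.0574 and 0.0642). Hpse, Ecm1, Ccn3, Slc7a11, Wtip and Vnn3 lost the call when any 1 of 3 to 6 of the 6 arrays compared was left out, with limma adjusted p-values up to 0.0682, 0.0582, 0.0766, 0.0814, 0.0766 and 0.133. Lyz1, Pmp22, Csf1, Fdps, Perp, P2ry1, Arrb1, Gpr84 and Rnf11 lost it when any 1 of 7 or 8 of the 9 arrays was left out, with limma adjusted p-values up to 0.146, 0.201, 0.169, 0.158, 0.149, 0.134, 0.0809, 0.134 and 0.169, and Pmepa1 and Mansc1 whichever of the 9 was left out (up to 0.134 and 0.177). All 38 kept their sign in each of these fits. Homozygous wild type replicate 3 was the wild type array nearest to the deficient arrays at 15 of the 26 higher and 10 of the 12 lower probes. It also had the lowest Pparg of its group, and a link between the 2 was not tested. Deficient replicate 3 was nearest to the wild type arrays at 15 of the 26 higher probes and 1 of the 12 lower.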

How the data were processed

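Per the file headers, the authors deposited non-normalized probe intensities (linear scale), beside detection p-values made by a method the sources used here do not give, and a normalized intensity table used as an alternative. Intensities were corrected with limma 3.58.1 (R 4.3.3) by normexp with negative controls inferred from the detection p-values (offset 16), quantile normalized over 9 arrays and taken to log2. Detection p-values this small are no ranks among control probes, so other background corrections were tried. Group means of the 9 arrays were fitted with lmFit and eBayes, contrasting deficient minus homozygous wild type, and adjusted by Benjamini-Hochberg over all passing probes, with calls at 0.05. The fit was also run on simulated arrays with equal normal spread in all groups. These held no background floor or slide effect, so they cannot test the fit for either. Where a group was below background on all arrays, the fold compares the brighter mean with the higher of each array's lowest signal above background and the probe's own value. In lists a gene stands by its brightest passing probe. The platform annotation gave 35784 probes 1 symbol and 10453 none; 28620 symbols were updated by gene identifier and 2637 by accession in a RefSeq table, and 4527 kept. Named genes are Pparg, Lyz2, Siglecf, Itgam, up to 15 largest called changes each way with a symbol and without overlap, clones passed over, and in each list the called members or up to 3 of smallest p with up to 2 of opposite sign; other genes were named after their values were seen. The members and the lists were chosen with earlier results of these data known. No columns beyond the 9 arrays were present.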

Additional observations from a re-analysis of the deposited data

How the results depend on the processing

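Against 38 probes called (26 higher, 12 lower), normexp without the detection p-values and with an offset of 50 gave 72 (48 and 24), no background correction 90 (58 and 32), the normalized table that the authors deposited gave 89 (54 and 35) and an intensity trend 96 (57 and 39). Without the filter on dim probes 16 were higher, with 1 probe per gene 6 lower, and with the 6 arrays only 9 were called (6 and 3). Cyclic loess gave 38, no normalization 34 (with a median shift of -0.22 over all probes), array weights 35, the stricter detection filter 39, and each array's background level as a covariate 35. With the replicate block, which pairs title numbers on the 6 arrays, 0 were called (1498 at an unadjusted limma p under 0.05). Deviations from group means correlated at 0.19, -0.07 and 0.15 between same-numbered arrays, and homozygous wild type replicate 2 correlated better with deficient replicate 3 (0.19), so the number was not taken as a pair; it also goes with the position on the slide. Leaving out each array gave 2 to 32 calls (0 to 23 higher, 1 to 11 lower), lowest without deficient replicate 1, when probes seen on 3 arrays of 1 group leave the filter. On the same probes it gave 14 to 42 (8 to 30 higher, 6 to 15 lower), lowest again without deficient replicate 1, with 17 without homozygous wild type replicate 2 and 25 without deficient replicate 2. The called probes that were tested kept their sign in all of these settings, and the cause of the changes in count was not tested. Pparg was called in 0 of 32 alternatives (differences -1.91 to -0.94, limma adjusted p = 0.0736 to 0.628). Slide as a block could not be fitted, since slide and group coincide. With 3 arrays per group the number of arrays limits precision, and differences at probes below background are bounds.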
